A study of Mus musculus with 20 samples.

Results

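The axon guidance ligands and receptors were followed across the 4 groups of mouse brain arrays. They were taken by gene symbol and comprise the semaphorins of classes 3 to 7, their plexin and neuropilin receptors, the ephrins and Eph receptors, Slit and Robo proteins, and netrins with the receptors Unc5 and Dcc. Of the 20972 gene symbols on the array, 70 met this rule, with 92 probes. One of them, Plxna4os1, is an antisense RNA and encodes neither a ligand nor a receptor. Where a gene had several probes its values are those of the probe with the highest mean signal. Tests were run on genes with a mean of 6 log2 units or more in at least 1 group. Of 15102 genes tested 63 were members, and the members not tested were Epha1, Ntn4, Ntn5, Plxna4os1, Sema3d, Sema3g and Unc5d.

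Axon guidance cues are secreted or membrane-bound proteins that attract or repel a growing axon. Semaphorins signal through plexins, for most of the class-3 members together with a neuropilin. Ephrins of the A type are tethered to the membrane by a lipid anchor and those of the B type span it, and both bind Eph receptor tyrosine kinases on a neighbouring cell. Slits act through Robo receptors, and netrins attract axons through Dcc and repel them through Unc5. In the adult brain many of these proteins are kept at synapses, on glia and on blood vessels.

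The study asked how HIV-1 Tat and methamphetamine (Meth), alone and together, alter gene expression in the mouse brain. Each group had 5 male C57BL/6J mice with 1 array per mouse, and all received doxycycline at 100 mg/kg for 7 days. Tat− mice carried only the doxycycline-dependent activator under the astrocyte promoter GFAP. Tat+ mice also carried the Tat86 transgene that it switches on, so that the promoter directs induced Tat expression to astrocytes. The paper names leaky Tat mRNA as possible, and where the protein lay was not measured on these arrays. Saline (0.9%) was injected for 7 days in the groups named Sal, and Meth at 2 mg/kg in those named Meth. The labels give the left brain hemisphere taken 24 h after the last injection from mice of 6 to 7 weeks. By the methods the mice were instead 3 to 5 months old and the tissue was caudate putamen. It was collected after 7 days without Meth and 1 h after a challenge with Meth at 1 mg/kg. By the methods all mice received this challenge, those of the Sal groups included, so no group was then free of Meth. Of 12 striatal marker genes all were above the limit for testing. In bulk tissue, fewer cells of a type and less RNA per cell cannot be told apart.

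All 5 Tat−/Meth arrays lay on slide 1, with no other group. Slide 2 held all arrays of Tat−/Sal with replicates 1 to 3 of Tat+/Meth, and slide 3 held replicates 4 and 5 of Tat+/Meth with all arrays of Tat+/Sal. The effect of a slide and the effect of the treatment therefore cannot be told apart in any comparison with Tat−/Meth, the interaction included. Bright corner spots, which are controls of the array itself, read 14.66 to 15.06 log2 units on slide 1 and at least 16.80 elsewhere. Between 55.5 and 70.9% of probes were well above background, and the highest value came from Tat−/Meth replicate 5, whose group otherwise reached 60.3%. The scaled signal of 62 of the 70 members was well above background on all 20 arrays, and none was saturated on any array. The exceptions were the 7 members not tested and Epha10.

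Plxna1 and Sema4a were the members most strongly lowered in Tat−/Meth against Tat−/Sal. Plxna1 encodes plexin-A1, a receptor that class-3 semaphorins reach through neuropilins and that also binds Sema6d. Its scaled log2 signal was 9.65, 9.71, 9.79, 9.59 and 9.79 on the 5 Tat−/Meth arrays, and 11.95, 11.93, 12.11, 11.85 and 12.09 in Tat−/Sal. In Tat+/Meth it was 12.38, 12.11, 11.86, 12.92 and 12.05, and in Tat+/Sal it was 12.06, 11.65, 11.70, 13.43 and 12.79. Every Tat−/Meth array lay below the 15 others, and the spread was widest in Tat+/Sal. The signal in Tat−/Meth was 4.86-fold lower than in Tat−/Sal, a log2 change of −2.28 ± 0.26 (SE, adjusted p = 1.26e-06 by limma with Benjamini–Hochberg adjustment over all genes tested, as for every adjusted p below).

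Sema4a is a membrane-bound class-4 semaphorin known from immune cells as well as from axon repulsion. It read 12.08, 11.93, 12.00, 11.94 and 12.11 in Tat−/Meth against 13.19, 13.27, 13.15, 13.07 and 13.20 in Tat−/Sal. The values were 13.28, 13.03, 12.91, 14.29 and 13.93 in Tat+/Sal, and 13.39, 13.28, 13.24, 13.78 and 13.51 in Tat+/Meth. As for Plxna1, the Tat−/Meth arrays lay apart below all others, and Tat+/Sal replicate 4 was the highest of the 20. The fall against Tat−/Sal was 2.24-fold (adjusted p = 7.41e-05).

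**Figure D1:**
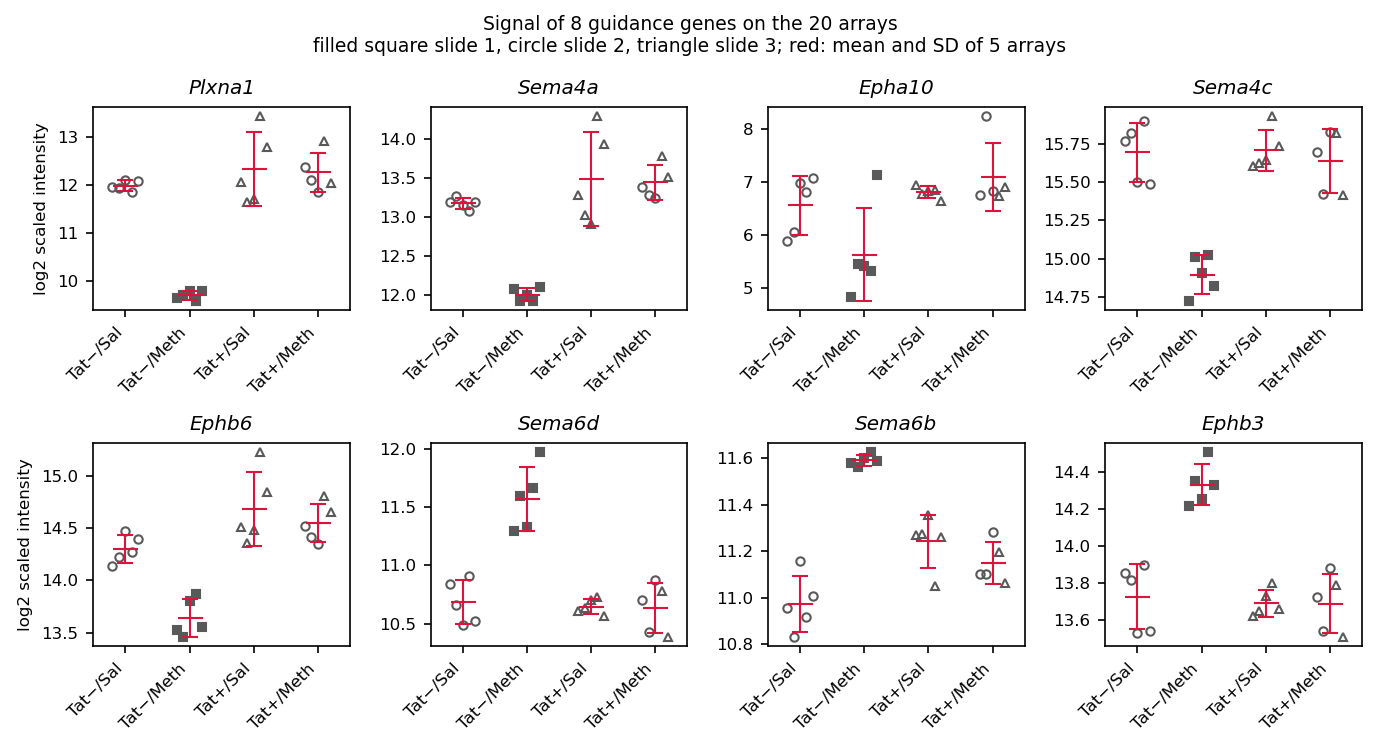
Scaled log2 intensity (vertical axis) of 8 guidance genes in the 4 groups (horizontal axis), 1 symbol per array with its shape giving the slide, and the mean with its SD over 5 arrays in red. The Tat−/Meth arrays lie below all others for Plxna1, Sema4a, Sema4c and Ephb6 and above all others for Sema6d, Sema6b and Ephb3, whereas for Epha10 Tat−/Meth replicate 5, at 7.13, lies among the other groups.

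A gene is termed called where its adjusted p was under 0.05 and its change exceeded 2-fold. Plxna1 and Sema4a were the 2 members called lower in Tat−/Meth against Tat−/Sal, which is 3.17% of the 63 members against 6.48% of all genes tested. No member was called higher, against 0.371% of all genes. By the adjusted p alone, 6 members were lower and 19 higher, that is 9.52% and 30.2% of the members, against 15.3% and 35% of all genes. The median change of the members was 0.15 log2 units and that of all genes 0.14. Groups without overlap were found for 6.35% (lower) and 19% (higher) of the members, against 11.5% and 24.7% of all genes. None of these shares of the members exceeded the share over all genes.

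Among the transmembrane and anchored semaphorins of classes 4 to 7, 3 of 13 were lower and 6 higher by the adjusted p. For this and each family below in this comparison, 15.3% of all genes were lower and 35% higher. Sema4c, a class-4 semaphorin that binds plexin-B2, read 14.72 to 15.02 in Tat−/Meth and 15.49 to 15.91 in Tat−/Sal, with no overlap, and was 1.75-fold lower (adjusted p = 5.32e-06). Sema5b was lower by a smaller amount, at a log2 change of −0.32 (adjusted p = 0.0349). By the probes used, the 3 members with the largest rise all belonged to class 6, whose transmembrane proteins bind A-type plexins. For Sema6c this depended on the probe. Sema6d, a ligand of plexin-A1, read 11.30, 11.60, 11.33, 11.66 and 11.97 in Tat−/Meth and 10.84, 10.66, 10.49, 10.91 and 10.52 in Tat−/Sal, which is a 1.85-fold rise (adjusted p = 1.07e-05). Sema6b held the smallest p of all members, with 11.58, 11.56, 11.60, 11.63 and 11.59 in Tat−/Meth against 10.96, 10.83, 11.16, 10.92 and 11.01 (1.53-fold, adjusted p = 3.46e-07). Sema6c rose 1.63-fold by the probe used (adjusted p = 2.18e-06), whereas its other probe fell by 0.65 log2 units. The probe used was the brighter only in Tat−/Meth, with a mean of 10.59 against 9.52, and the dimmer in every other group. Its choice by the mean over all arrays therefore leaned on the group tested. The class-6 member Sema6a had a log2 change of −0.20 (adjusted p = 0.17). Sema4d, a ligand of plexin-B1, rose by 0.40 log2 units, Sema4g by 0.37 and Sema4b by 0.28.

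None of the 5 secreted class-3 semaphorins tested passed. Their log2 changes ran from −0.19 for Sema3a, with the smallest adjusted p of 0.0629, to 0.34 for Sema3c. Among plexins and neuropilins, 1 of 11 was lower and 3 were higher. Those that rose were Plxnb1, the receptor of Sema4d, by 0.50 log2 units (adjusted p = 4.87e-05), Plxna3 by 0.44 and Plxna2 by 0.33. The co-receptors Nrp1 and Nrp2 had log2 changes of −0.20 and 0.26, with adjusted p of 0.56 and 0.101.

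Ephrin-A ligands were higher in 3 of 5 cases, by 0.46 log2 units for Efna3, 0.38 for Efna1 and 0.29 for Efna5. Of the 3 ephrin-B ligands Efnb1 passed, at 0.24 (adjusted p = 0.041), though under none of the 5 other scalings and background corrections tried. Among their receptors, Epha5 rose by 0.58 (adjusted p = 3.57e-05) and Epha4 by 0.37, while Epha10 fell by 0.93 (adjusted p = 0.0406). Of the 5 EphB receptors, Ephb3 rose by 0.61 (adjusted p = 1.55e-05), with 14.22 to 14.51 in Tat−/Meth and 13.53 to 13.90 in Tat−/Sal. Ephb6, whose kinase domain is inactive, fell by 0.66 (adjusted p = 0.000707), with 13.46 to 13.87 in Tat−/Meth and 14.14 to 14.47 in Tat−/Sal. Neither of these EphB receptors overlapped between the groups, as held for 11.5% of all genes on the lower side and 24.7% on the higher. Epha2, which the study's text names, read 6.43 to 6.72 in Tat−/Meth and 6.28 to 6.54 in Tat−/Sal, and its change of 0.16 (95% interval −0.11 to 0.42) did not pass.

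Of Slit and Robo genes, 1 of 7 passed, the Slit receptor Robo1, which was higher by 0.23 (adjusted p = 0.00915). Of 6 netrins and netrin receptors, Unc5c, a receptor for repulsion by netrin, rose by 0.42 (adjusted p = 0.001) and Ntn3 by 0.25. The attractive receptor Dcc had a log2 change of −0.28 (95% interval −0.82 to 0.27, adjusted p = 0.39). Its probes differed in level, with Tat−/Sal means of 16.5 for the probe used and 7.1 and 4.9 for the others. The probe at 7.1 changed by 0.30 (adjusted p = 0.36 over all probes tested), and the one at 4.9 was not tested.

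**Figure D2:**
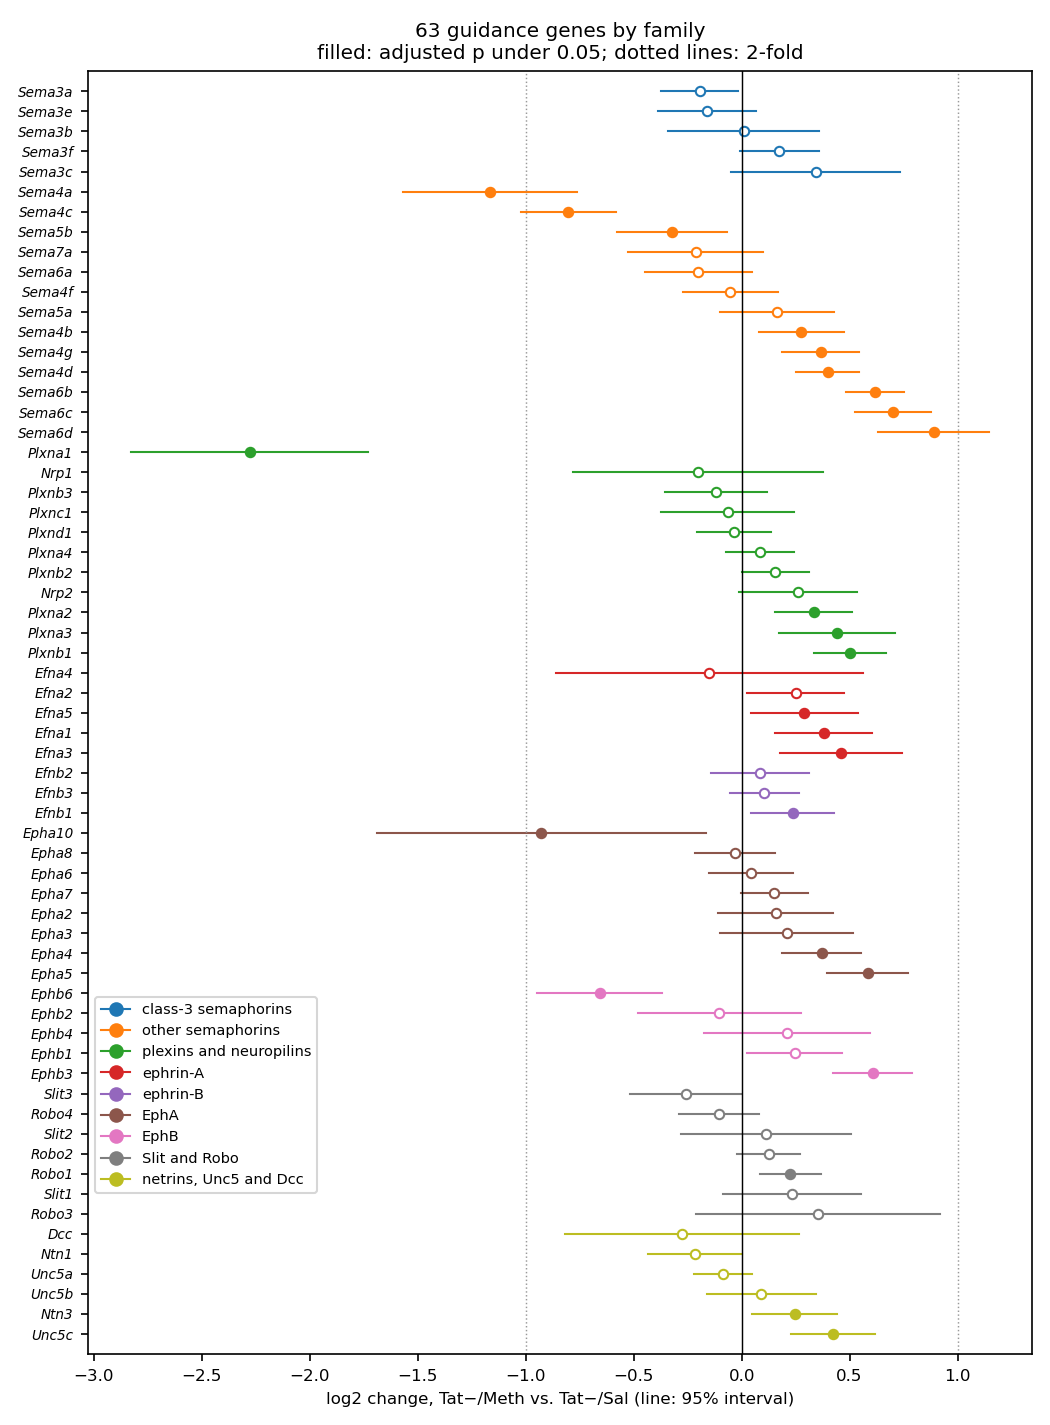
Log2 change in Tat−/Meth against Tat−/Sal (horizontal axis) for the 63 members tested (vertical axis, coloured by family), each with its 95% interval, filled where the adjusted p was under 0.05. Plxna1 lies lowest at −2.28, next to it Sema4a at −1.17, and the 5 class-3 semaphorins are all open.

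The direction of the small changes rested on how the arrays were scaled. Without scaling, 27 members were lower and 1 higher in this comparison in place of 6 and 19, as were 47.2% and 0.827% of all genes. Leaving out the scale lowered the change of every gene by about the same amount, with a median of −0.42 log2 units (−0.44 to −0.36), and the median of all genes moved from 0.14 to −0.28. Plxna1, Sema4a, Sema4c, Ephb6 and Sema6d passed in the same direction under all 6 scalings and background corrections tried. Of the 19 members higher, 12 passed under each of them other than no scaling. Without it 10 of the 19 turned to values below 0, namely Efna1, Efna5, Efnb1, Epha4, Ntn3, Plxna2, Robo1, Sema4b, Sema4d and Sema4g. Sema5b and Epha10 did not pass with normexp or from the series matrix values. Relative to the median of all genes, 23 of the 25 members kept the sign of their change under all 6.

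**Figure D3:**
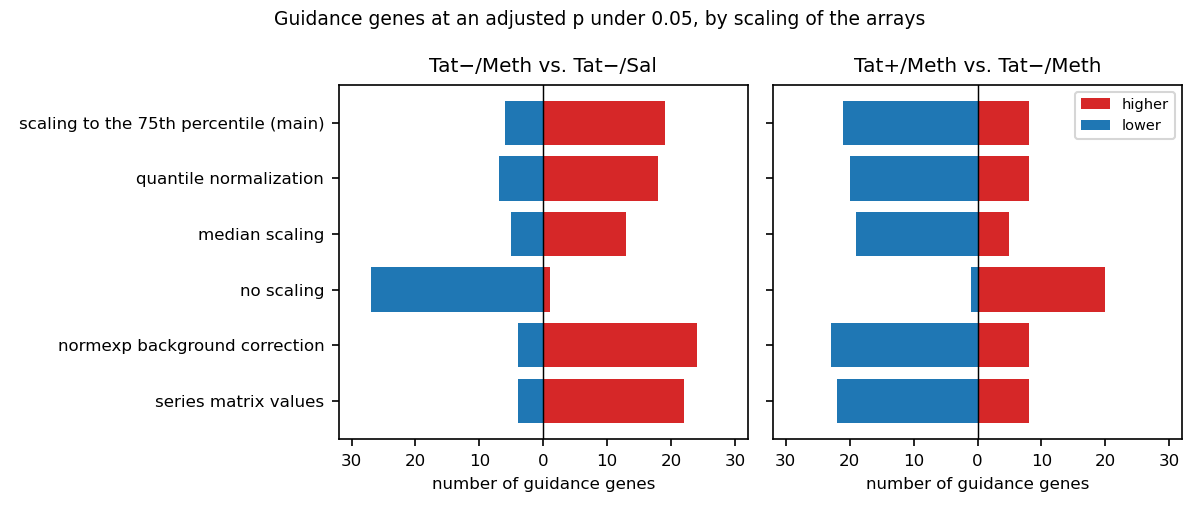
Number of guidance genes (horizontal axis, lower to the left and higher to the right of 0) at an adjusted p under 0.05 under 6 ways of scaling or background correction (vertical axis), for both comparisons with large counts. The balance turns without scaling, where 27 members are lower and 1 is higher in Tat−/Meth against Tat−/Sal.

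Promoter sequences of RefSeq (build GRCm38.p6) were matched by symbol for 59 of the 69 members other than the antisense RNA. In the 250 bases before a start, the GC box GGGCGG was found on either strand for 44 of these 59 genes (74.6%), against 35.4% of all 27025 genes in the table. The TATA box TATAAA, also sought on both strands, was found for 2 of the 59 (3.39%), against 14.3%. The genes of the table include many that were not tested on the arrays, whereas most members were tested. No share was taken over the tested genes alone, so these differences cannot be read as particular to guidance genes. The GC box was present for 4 of 5 members that were lower in Tat−/Meth against Tat−/Sal, for 16 of 19 that were higher and for 21 of 30 that did not pass, so its share was high on either side of 0. A match of letters does not show that a factor binds. As examples of both directions, the 250 bases before the most upstream listed start are given for Sema4a and Ephb6, which were lower, and for Ephb3, which was higher. Capitals mark the GC box or its reverse complement CCGCCC. The table has 4 starts for Sema4a and 1 each for Ephb6 and Ephb3. No sequence of Plxna1 was matched.
Sema4a (chr3:88461183-88461432, minus strand): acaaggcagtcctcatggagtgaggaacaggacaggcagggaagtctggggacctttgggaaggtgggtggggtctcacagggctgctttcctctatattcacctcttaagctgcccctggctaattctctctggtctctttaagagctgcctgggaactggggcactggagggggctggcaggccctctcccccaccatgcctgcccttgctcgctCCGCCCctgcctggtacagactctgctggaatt
Ephb6 (chr6:41605261-41605510, plus strand): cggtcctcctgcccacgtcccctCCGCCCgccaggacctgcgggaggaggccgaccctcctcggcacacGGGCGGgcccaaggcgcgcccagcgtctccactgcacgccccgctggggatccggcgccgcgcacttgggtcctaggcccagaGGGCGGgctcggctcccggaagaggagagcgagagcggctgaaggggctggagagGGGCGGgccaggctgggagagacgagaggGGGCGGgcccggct
Ephb3 (chr16:21204545-21204794, plus strand): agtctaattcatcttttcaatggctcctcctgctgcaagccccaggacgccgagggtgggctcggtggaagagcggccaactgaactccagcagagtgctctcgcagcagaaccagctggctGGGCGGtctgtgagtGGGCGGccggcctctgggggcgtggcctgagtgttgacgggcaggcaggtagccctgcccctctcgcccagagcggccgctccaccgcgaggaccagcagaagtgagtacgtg
These windows hold 1, 5 and 2 GC boxes, in that order, and have a G and C content of 59.6, 76.8 and 65.6%.

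Tat+/Meth was also compared with Tat−/Meth, which asks what Tat adds under Meth. This comparison shares the Tat−/Meth arrays with the one above, so the values are given side by side and the mirror image of the former is no separate evidence. Of the members, 3 were called higher, namely Plxna1 (5.89-fold, adjusted p = 2.66e-07), Epha10 (2.75-fold, adjusted p = 0.00245) and Sema4a (2.69-fold, adjusted p = 6.65e-06). This is 4.76% of the members against 6.75% of all genes, and no member was called lower, against 0.47%. By the adjusted p alone 8 members (12.7%) were higher and 21 (33.3%) lower, against 16% and 38.5% of all genes. The median change was −0.08 log2 units over the members and −0.15 over all genes. Without scaling, which raised all changes by about 0.34, 1 member was lower and 20 were higher, as were 2.14% and 35% of all genes, and Epha7, Ephb1, Robo1, Robo2 and Unc5b turned to values above 0.

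Epha10 encodes an Eph receptor that lacks kinase activity. Its probe read 6.75, 8.24, 6.83, 6.73 and 6.89 in Tat+/Meth and 4.83, 5.45, 5.41, 5.32 and 7.13 in Tat−/Meth. The groups overlapped through Tat−/Meth replicate 5, and that probe was well above background on 4 of the 5 Tat−/Meth arrays. Without replicate 5 or any other single array the change stayed above 2-fold, between 1.17 and 1.84 log2 units. With normexp it was 0.57 (adjusted p = 0.0446) and with the mean over its probes 0.37 (adjusted p = 0.18), not called in either case. The second probe of Epha10 went the other way in this comparison, at −0.72 (adjusted p = 0.032 over all probes tested).

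The other members higher in Tat+/Meth against Tat−/Meth were Ephb6 (0.91 log2 units), Sema4c (0.75), Sema5b (0.39), the netrin Ntn1 (0.36) and the Slit ligand Slit3 (0.33). The largest falls were those of Sema6d (−0.94), Ephb3 (−0.65), Epha5 (−0.64), Sema6c (−0.62) and Epha4 (−0.54), with adjusted p of 4.76e-06 to 4.84e-05. The second probe of Sema6c instead rose by 0.83 (adjusted p = 6.9e-05 over all probes tested). Efna1 led the ephrin-A ligands at −0.50, of which 3 of 5 fell, where 38.5% of all genes did. Unc5c (−0.41) and Unc5b (−0.30) fell together with Robo2 (−0.29) and Robo1 (−0.24). Sema3c was the one class-3 semaphorin that passed, at −0.45 (adjusted p = 0.0472). No ephrin-B ligand passed, with the smallest adjusted p of 0.0842 for Efnb3 at −0.16. Epha2 had a log2 change of −0.02 (95% interval −0.28 to 0.25).

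The interaction, obtained by subtracting the Meth effect in Tat− mice from the one in Tat+ mice, tests the difference between these effects directly. Plxna1 (2.22 ± 0.37 log2 units, SE, adjusted p = 0.000149) and Sema4a (1.12 ± 0.27, adjusted p = 0.00368) were called higher (3.17% of members), against 6.88% of all genes. Robo3 (−1.04 ± 0.38, adjusted p = 0.0396) was called lower (1.59%), against 0.563%. By the adjusted p alone 4 members (6.35%) were higher and 12 (19%) lower, against 12.4% and 23.6% of all genes. Sema4a was just under 2-fold without Tat+/Sal replicate 3, at 0.98, and stayed called without any other single array, but with median scaling it was 0.89 (adjusted p = 0.0519). The other members that were higher were Sema4c (0.73) and Ephb6 (0.52).

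Robo3, which controls the midline crossing of commissural axons, rested on shifts in opposite directions. It read 9.15, 8.81, 9.67, 9.70 and 8.65 in Tat−/Meth against 8.05, 8.77, 9.57, 8.87 and 8.96 in Tat−/Sal. In Tat+ mice it read 8.89, 8.79, 8.93, 8.12 and 8.30 with Meth and 9.70, 8.72, 9.68, 9.23 and 9.16 with saline. The groups overlapped in both pairs, and neither effect passed by itself, at 0.35 (adjusted p = 0.285) and −0.69 (adjusted p = 0.32). In Tat+/Meth it read 8.79 to 8.93 on slide 2 and 8.12 to 8.30 on slide 3, and with slide as a fixed block the effect in Tat+ mice was −1.09 (adjusted p = 0.896). Robo3 was called in 10 of the 20 fits that left out 1 array, with adjusted p of up to 0.0748. Without scaling it was −0.56 (adjusted p = 0.232), with no filter on the level its adjusted p was 0.0603, and with normexp and from the series matrix values it was under 2-fold, at −0.94 and −0.99, as it was with slide as a random block, at −0.93. It lost the call without Tat−/Meth replicate 1, 3 or 4, Tat−/Sal replicate 1, 2 or 4, Tat+/Meth replicate 4 or 5, or Tat+/Sal replicate 1 or 3.

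The 12 members with a negative interaction were led, after Robo3, by Sema6d (−0.90), Efna3 (−0.75), Sema6b (−0.71, adjusted p = 9.19e-06), Sema6c (−0.62) and Ephb3 (−0.61). Epha5 (−0.60), Epha4 (−0.58), Efna1 (−0.55), Plxnb1 (−0.52), Sema4g (−0.50) and Sema4d (−0.30) followed. In Tat+ mice the Meth effects of Sema6d, Ephb3 and Epha5 were −0.01 (95% interval −0.27 to 0.24), 0.00 (−0.18 to 0.18) and −0.01 (−0.20 to 0.17). Epha10, at 1.21 (adjusted p = 0.0741), did not pass. It was called without Tat−/Meth replicate 5 (1.58, adjusted p = 0.00433), without Tat−/Sal replicate 1 (1.38, adjusted p = 0.0473), without scaling (1.70, adjusted p = 0.00831) and with slide as a random block (1.29, adjusted p = 0.0187). Members that did not pass were also Unc5c (−0.30, adjusted p = 0.0856), Efnb3 (−0.23, adjusted p = 0.106), the class-3 semaphorin Sema3e (0.20, adjusted p = 0.328) and Epha2 (0.00). Without scaling, 24 members were higher and 0 lower, as were 39.1% and 0.304% of all genes, Sema4d turned to a value above 0, and the median of all genes moved from −0.14 to 0.35 log2 units. Plxna1 alone among the 16 passed in the same direction under all 6 scalings and background corrections.

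**Figure D4:**
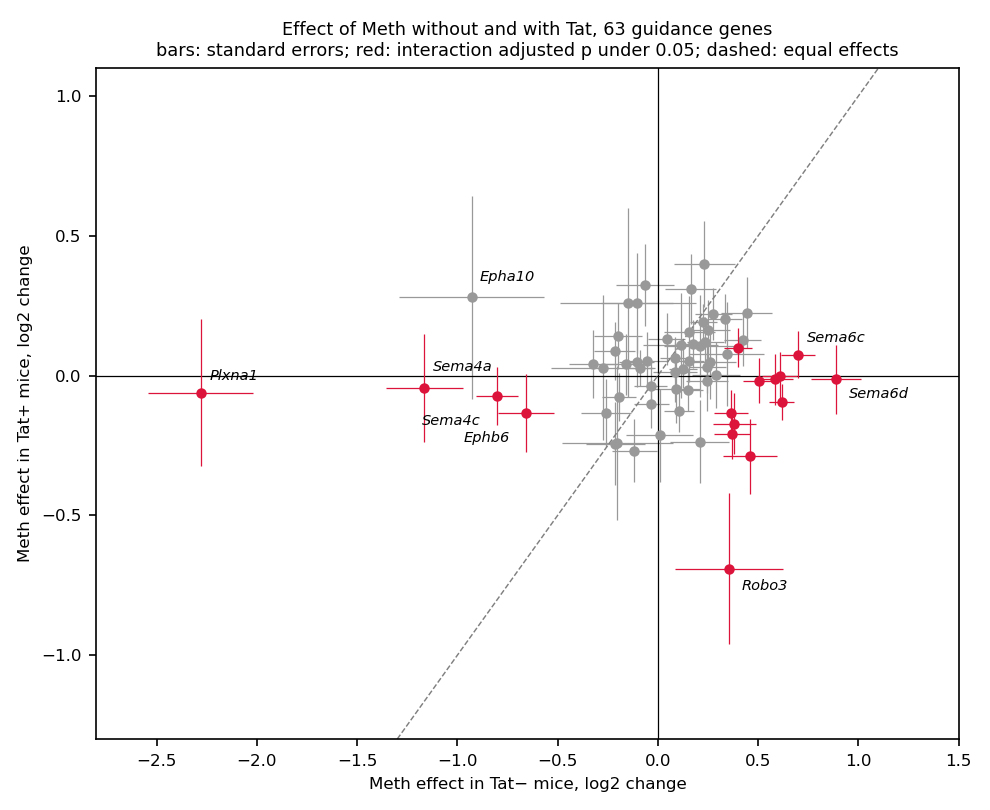
Effect of Meth on 63 guidance genes as a log2 change in Tat− mice (horizontal axis) and in Tat+ mice (vertical axis), which share no arrays, with standard errors. The 16 red points, among them Plxna1 at −2.28 and −0.06, passed the interaction test and lie off the dashed line of equal effects.

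In Tat+ mice, Meth against saline moved no member past the adjusted p, and 0% of all genes passed in either direction. At an unadjusted p under 0.05 there were 10 members (15.9%, with 4 lower and 6 higher) against 12.2% of all genes. The smallest adjusted p was 0.277, for Robo1 at 0.19 log2 units. Next to it, the leading members of the other families were Sema5a (0.31), Plxnb3 (−0.27), Epha4 (−0.21), Efna3 (−0.29), Efnb3 (−0.12), Ephb2 (0.26), Unc5c (0.13) and Sema3f (0.11), with adjusted p of 0.342 to 0.622. For 61 of the 63 members the 95% interval lay within 2-fold in both directions, and the exceptions were Epha10 and Robo3. Plxna1 changed by −0.06 (95% interval −0.61 to 0.49) and Epha2 by 0.16 (−0.11 to 0.42). Within slide 3, with 2 against 5 arrays, 0 members passed and Plxna1 changed by 0.16.

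Tat+/Meth against Tat−/Sal, that is Tat with the repeated Meth injections against neither of them, likewise had 0 members and 0% of all genes past the adjusted p. The 7 members with an unadjusted p under 0.05 are 11.1% of the members, against 7.79% of all genes. The leading members were Plxnb2 (0.24), Sema3a (−0.23), Sema6b (0.17) and Slit1 (0.44), each with an adjusted p of 0.64, followed by Efna2 (0.14), Efnb1 (0.18), Epha3 (−0.30), Ephb6 (0.25) and Unc5b (−0.20). Epha2 changed by 0.14 (95% interval −0.13 to 0.41). For 62 members the interval lay within 2-fold, with Epha10 as the exception. Within slide 2, with 3 against 5 arrays, 0 members passed, and the changes of Plxna1 and Sema4a were 0.13 and 0.13.

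Tat without the repeated Meth injections was tested by Tat+/Sal against Tat−/Sal. No member was called, where 0.0199% of all genes were called lower and 0% higher. At an unadjusted p under 0.05 there were 9 members (14.3%), against 20.5% of all genes. Sema4g (0.35 log2 units, adjusted p = 0.044) and Sema6b (0.27, adjusted p = 0.046) were higher by the adjusted p. These are 3.17% of the members against 0.768% of all genes, and none was lower, against 0.649%. Sema4g read 9.16, 8.89, 8.82, 8.87 and 8.98 in Tat+/Sal and 8.62, 8.37, 8.60, 8.71 and 8.65 in Tat−/Sal, without overlap. Such a separation on the higher side was seen for 1.59% of the members and 1.85% of all genes. Sema6b read 11.27, 11.28, 11.35, 11.05 and 11.26 against 10.96, 10.83, 11.16, 10.92 and 11.01, with 1 array of each group in the other's range. These groups lay on different slides, linked by the Tat+/Meth arrays on both. With slide as a block the changes were 0.35 and 0.30 with adjusted p of 0.872 for each, and neither passed under median scaling, without scaling, with normexp or from the series matrix values.

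Other leading members of this comparison were Plxna2 (−0.33, adjusted p = 0.057), Robo1 (−0.21, adjusted p = 0.101), Ephb6 (0.38, adjusted p = 0.134) and Epha8 (0.19, adjusted p = 0.238). Efna3 (0.27), Sema3a (−0.16), Unc5b (−0.16), Efnb2 (0.11) and Epha2 (−0.02) had adjusted p of 0.256 to 0.961. With slide as a block Plxna2 was at −0.18, Ephb6 at 0.08, Epha8 at 0.04 and Efna3 at 0.54, and Robo3 moved from 0.45 to 1.11, all with adjusted p of 0.872 to 0.986. For 61 of 63 members the 95% interval lay within 2-fold. The spread of Plxna1 and Sema4a within Tat+/Sal was 0.77 and 0.60 log2 units (SD, n = 5), against 0.11 and 0.07 in Tat−/Sal. Tat+/Sal replicate 4 gave the highest value of all 20 arrays for Plxna1, Sema4a, Ephb6 and Sema4c.

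Probes of the same gene did not always move together. Of 20 members with several probes, 2 had probes that passed in opposite directions in Tat−/Meth against Tat−/Sal. The same 2 did so in Tat+/Meth against Tat−/Meth, as given above. In Tat−/Meth against Tat−/Sal the probe used for Sema6c rose by 0.70 and the other fell by 0.65 (adjusted p = 0.000819). Their interactions were −0.62 and 0.78. For Epha10 the probe used fell by 0.93 and the other rose by 1.22 (adjusted p = 0.00118). The adjusted p of a probe was taken over all probes tested. The second probe of Epha10 was well above background on all 5 arrays of Tat−/Meth, on 4 each of Tat−/Sal and Tat+/Meth, and on 2 of Tat+/Sal. Whether these probes measure different transcripts was not tested.

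For Sema6d the second probe had a log2 change of −0.09 against 0.89, for Epha5 0.06 against 0.58, for Sema5b 0.22 against −0.32, and for Ephb6 −0.28 against −0.66. In Tat+/Meth against Tat−/Meth the second probe of Robo2 changed by −0.09 against −0.29. Epha7 showed the reverse case, where the brightest probe, at 0.15, did not pass and the other probes rose by 0.51 and 0.40. Nrp2 had −0.54 (adjusted p = 0.0126) and Plxnc1 0.74 (adjusted p = 0.0405) from the probe not used, while Efna3 and Unc5c had 0.26 and 0.21, in the same direction as the probe used. Plxna1, Sema4a, Sema4c, Sema6b, Ephb3, Plxnb1 and Robo3 each had a single probe, so their changes have no second probe beside them.

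**Figure D5:**
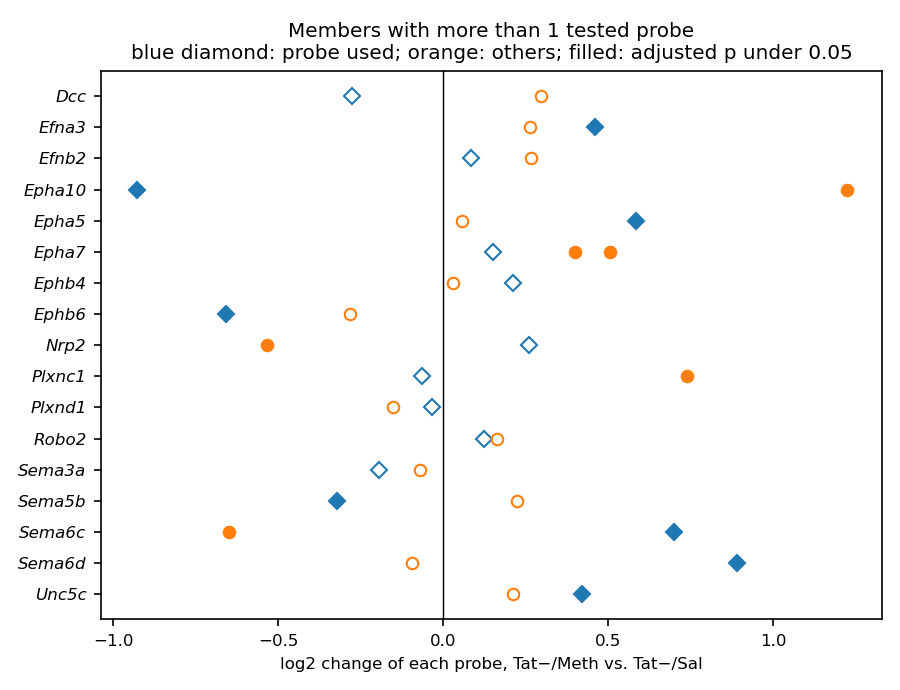
Log2 change of each tested probe in Tat−/Meth against Tat−/Sal (horizontal axis) for the 17 members with more than 1 tested probe (vertical axis), with the probe used as a blue diamond and filled symbols at an adjusted p under 0.05. Epha10 and Sema6c have filled symbols on both sides of 0.

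Proteins that act downstream of guidance receptors were counted from a list of 59 genes, of which 56 were tested. In Tat−/Meth against Tat−/Sal 10 were lower and 21 higher by the adjusted p, with a median change of 0.14 log2 units as over all genes. These are 17.9% and 37.5% of the list, near the 15.3% and 35% of all genes. The 2 called (3.57% against 6.48%) were Rgs3, whose PDZ form acts behind ephrin-B, and Srgap2, which acts behind Robo receptors. Rgs3 had means of 10.26 ± 0.07 (SD, n = 5) in Tat−/Meth and 12.43 ± 0.04 in Tat−/Sal, a log2 change of −2.17 (adjusted p = 1.25e-05). Srgap2 had 8.91 ± 0.32 and 10.60 ± 0.27, a change of −1.69 (adjusted p = 5.19e-08). Next to them stood the Rac exchange factor Tiam1 at −0.81, and the largest rises were those of the actin-binding Ablim1 (0.80), the plexin-binding GTPase Rnd1 (0.67) and Farp2 (0.57).

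In Tat+/Meth against Tat−/Meth 22 effectors were lower and 9 higher (39.3% and 16.1%, against 38.5% and 16% of all genes). Those called higher were Rgs3 (2.49), Srgap2 (1.82) and Tiam1 (1.35), which is 5.36% of the list against 6.75% of all genes. Ablim1 (−0.80), Rnd1 (−0.66) and Nck1 (−0.65) were the most lowered. Their interaction had 17 lower and 8 higher (30.4% and 14.3%, against 23.6% and 12.4%). Rgs3 (2.13) and Srgap2 (1.83) were called higher (3.57%, against 6.88% of all genes) and Rnd1 (−1.15) lower (1.79%, against 0.563%). They were followed by Limk2 (0.93) and by the kinases Rock1 (−0.80) and Yes1 (−0.77). In Tat+/Sal against Tat−/Sal Arhgef12 passed, at −0.25 (1.79% of the list lower, against 0.649% of all genes), and 0 passed in the other comparisons of Tat+/Meth.

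A second list of 46 other guidance and adhesion genes had 42 tested. In Tat−/Meth against Tat−/Sal none was called, against 6.48% of all genes called lower and 0.371% called higher, and the median change was 0.13. By the adjusted p alone 5 were lower and 18 higher (11.9% and 42.9%, against 15.3% and 35% of all genes). They were led by the Reelin adaptor Dab1 (−0.79), L1cam (−0.46) and Celsr2 (−0.35), and by Dscaml1 (0.63), Reln (0.51) and Ncam1 (0.49). In Tat+/Meth against Tat−/Meth Dab1 was called higher (1.23), which is 2.38% of the list against 6.75% of all genes. By the adjusted p alone 5 were higher and 13 lower in all (11.9% and 31%, against 16% and 38.5%). Next came Celsr2 (0.50) and L1cam (0.43), and the largest falls were those of Slitrk4 (−0.55), Reln (−0.53) and Chl1 (−0.48). In the interaction, where the shares of 16.7% and 11.9% compare with 23.6% and 12.4%, 7 were lower, led by Ptprd (−0.63), Cntn6 (−0.53) and Slitrk4 (−0.46), and 5 higher, led by Dab1 (0.80), L1cam (0.49) and Lrp8 (0.33). In Tat+/Sal against Tat−/Sal Lrrc4c passed, at −0.38 (2.38% of the list lower, against 0.649% of all genes).

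Marker genes of brain cell types were set beside these changes. Of 6 astrocyte markers 4 (66.7%, against 35% of all genes) were higher by the adjusted p in Tat−/Meth against Tat−/Sal, among them Gja1 from 10.20 to 11.04. Their median change was 0.26 log2 units against 0.14 for all genes, a size below the shift that leaving out the scale gives, and their summed scaled level was 16.43 to 16.69 log2 units in Tat−/Meth against 16.13 to 16.36 on the other 15 arrays. Against Tat−/Meth 5 of the 6 (83.3%, against 38.5%) were lower in Tat+/Meth. The remaining lists compare with 15.3% of all genes lower and 35% higher in Tat−/Meth against Tat−/Sal. Of 12 striatal markers 2 (16.7%) were lower and 0 higher, and of 7 cortical markers tested 0 were lower and 1 (14.3%) higher. For thalamus and midbrain 1 of 4 was lower (25%), Tcf7l2 at −1.61, and 1 higher (25%). Choroid plexus had 0 of 4, ependyma 1 of 3 higher (33.3%) and oligodendrocytes 1 of 6 higher (16.7%). Microglia had 1 lower and 1 higher of 6 (16.7% each), vessels 1 of 5 higher (20%) and red blood cells 1 of 6 higher (16.7%). The summed levels of these remaining lists overlapped between Tat−/Meth and Tat−/Sal. The part of these cells, of slide 1 and of its lower control spots in the changes of the guidance genes was not tested.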

How the data were processed

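Agilent one-colour arrays of 20 mouse brain samples were analysed. The authors deposited spot intensity values from Agilent feature extraction (raw, background and background-subtracted signals), together with a series matrix of intensity values, linear, uncentred and with array medians of 69.8 to 145.0 against 58.8 to 120.1 for the background-subtracted signal (log2 correlation per array of at least 0.9989 over the brighter probes). How it was made is not given in the sources used here, and the 7831 matrix values below 1 were set to 1. The background-subtracted signal was used. Spots flagged as outliers were left out (4278 over all arrays), spots of a probe were averaged as log2 values, and the 75th percentile of an array served as its scale. Symbols were assigned through the RefSeq accession of each probe. Groups were compared on the log2 scale in limma 3.58.1 (R 4.3.3) with 1 mean per group over all 20 arrays. In a simulation of Tat−/Meth against Tat−/Sal over 15102 genes, 54% of 200 genes changed by 0.5 log2 units and 92% of those changed by 1 passed the adjusted p. Those 200 were the only genes changed and the noise was normal, whereas in the data 15.3% of genes were lower and 35% higher. The unadjusted p needed to pass was therefore smaller in the simulation, so its shares do not describe the data.

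The members, gene lists and tests were chosen with earlier results of these data known. The members named were, per comparison, those called, the 5 largest changes in each direction past the adjusted p, the smallest p of each of 9 families, and Epha2. Of the lists of effectors and other guidance genes, those called and the 3 largest changes in each direction past the adjusted p were named, and cell type markers were counted. The value of 1 marker gene is not reported here. The number of arrays limits the precision. Groups were also fitted under 20 kinds of alternative. Some of their results stand beside the genes concerned and others in the closing section, and not every kind is reported. Figures were drawn with matplotlib 3.10.9 under Python 3.11.15.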

Additional observations from a re-analysis of the deposited data

Results flagged for a closer look

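In 3 members the Meth effect differed between Tat+ and Tat− mice by the interaction test with a change above 2-fold. The difference was 2.22 log2 units for Plxna1, 1.12 for Sema4a and −1.04 for Robo3. The 2 higher are 3.17% of members against 6.88% of all genes, and the 1 lower is 1.59% against 0.563%. Robo3 was called in 10 of the 20 fits that left out 1 array and was under 2-fold with slide as a random block. All 5 Tat−/Meth arrays lay on a slide of their own, so slide and treatment cannot be told apart in these differences.

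Single arrays lay far from the others of their group in 8 of 144 sets of 5 arrays, by the gap to the nearest array as a share of the range. Chance gives about 1 in 20, and this count is near that rate. Epha10 stood apart in both Meth groups, with 7.13 log2 units on Tat−/Meth replicate 5 against 4.83 to 5.45 on the others, and with 8.24 on Tat+/Meth replicate 2 against 6.73 to 6.89. Efna3 read 9.66 on Tat−/Meth replicate 5 against 8.87 to 9.07. Before scaling, the median signal of that array was 117.2, against 58.8 to 66.9 on the others of its group. Epha1, Ntn4, Ntn5, Plxna4os1, Sema3d and Unc5d, whose low signal left them untested, also read highest of the group there, but Sema3g did not. Tat+/Meth replicate 3 was high for Efnb2, at 12.85 against 12.39 to 12.51, and for Sema3f, at 12.38 against 11.86 to 11.92. Efnb2 was low on Tat−/Sal replicate 3, at 12.24 against 12.42 to 12.47. Epha8 read 11.90 on Tat−/Meth replicate 3 against 11.74 to 11.78, and Unc5c 8.89 on Tat+/Sal replicate 4 against 9.35 to 9.52. The cause of these values was not tested.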

How the results depend on the processing

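The number of members called was 2 in Tat−/Meth against Tat−/Sal, 3 in Tat+/Meth against Tat−/Meth and 3 in the interaction. Without scaling it was 5 in each of the 3, and with median scaling it was 5 in Tat+/Meth against Tat−/Meth. Without scaling, all genes past the adjusted p in Tat−/Meth against Tat−/Sal also moved, from 15.3% lower and 35% higher to 47.2% and 0.827%. With no limit on the fold the count of members was 25, 29 and 16, and 2 in Tat+/Sal against Tat−/Sal. All genes then gave 15.3% lower and 35% higher, 38.5% and 16%, and 23.6% and 12.4% in the 3 comparisons. Under the limits of the methods, 3-fold and an adjusted p of 0.01, the count of members was 1 in each of the 3. The counts of members called are given without the share of all genes called under each setting. Leaving out 1 array gave 2 to 3, 3 to 4 and 1 to 4 members. The lowest interaction count came without Tat+/Sal replicate 3 and the highest without Tat−/Meth replicate 5. With the replicate block the counts were 2, 3 and 3, and 0 in the remaining comparisons, as without it. Samples with the same number had a median correlation of 0.04 (−0.18 to 0.36 over 30 pairs) and 8 of 20 arrays were closest to their own number, so the numbers were not taken as pairs. The methods' t-test gave 2 and 3 for the first 2 comparisons, unadjusted and adjusted. With slide as a random block 7 members passed the adjusted p in Tat+/Sal against Tat−/Sal in place of 2 (11.1% of members, 15.4% of all genes, with a block correlation of −0.062), and with slide as a fixed block 0. No call of a member appeared in the comparisons of Tat+/Meth with Tat+/Sal and with Tat−/Sal under any setting run.

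Leaving out the scale shifts every gene alike by construction, by about −0.42 in Tat−/Meth against Tat−/Sal and 0.34 in Tat+/Meth against Tat−/Meth. It turned 10 members negative in the former, among the named Efna1 (−0.04), Efnb1 (−0.18) and Robo1 (−0.20), and 5 positive in the latter, among the named Robo2 (0.052). With the mean over the probes of a gene, Epha10 turned to 0.15 in the former comparison, and Sema6c to 0.11 in the latter and to 0.077 in the interaction. The cause of these probe differences was not tested. Slide as a fixed block could not be estimated for comparisons with Tat−/Meth, and the fit of only the groups compared and the methods' t-test were not run for the interaction. The 5 arrays per group allow a median half-width of 0.23 log2 units for a member's 95% interval in a comparison of 2 groups. This is not the limit of the adjusted p, and larger changes did not always pass, such as −0.69 for Robo3 in Tat+/Meth against Tat+/Sal.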
